A study of Mus musculus with 8 samples.

Results

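A set of 34 gene symbols of glycolysis and of the cell's answer to low oxygen was followed in mouse embryonic fibroblasts with and without Med23, a subunit of Mediator, the complex through which activators bound to DNA reach RNA polymerase. It took in the glucose transporter and hexokinases, the enzymes from glucose to lactate, the hypoxia-inducible factors (HIF) with their prolyl hydroxylases, and known HIF target genes. A symbol counted as measured where the array annotation gave a probe set (a group of short probes for 1 transcript) to that gene alone, which held for 31 of the 34 through 60 of the 22690 probe sets, out of 12394 genes measured that way. The signals of Gpi1 and Eno1 were not analysed here, and Bnip3l was left out because its 3 probe sets name a second locus as well. Of the 60 probe sets, 53 were bright enough to be tested, and they covered 26 genes. Aldoc, Eno2, Slc16a3, Car9 and Car12 were measured but not tested, and their main probe sets gave signals between 28.31 and 523.8 over the 8 arrays.

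The study had 4 groups of 2 arrays each. Med23-/- knockout (KO) cells were kept for 16 h in 0.5% fetal bovine serum and then given 20% serum for 30 min (KO serum), or harvested after the 16 h (KO starved). Wild-type (WT) cells had the same 2 treatments (WT serum, WT starved). All cells were fibroblasts, the connective tissue cells of the embryo, from day E11, cultured and passaged through crisis, the stage after which an immortal line grows out. The labels number the 2 arrays of each group as sets 1 and 2 and do not say how many embryos or lines stood behind each genotype, so that genotype and line cannot be told apart, and p-values measure only the spread between these samples. The stated purpose was to find serum responses that depend on MED23.

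The Med23 probe set read 34.61 and 36.91 in KO serum and 28 and 132.5 in KO starved arrays, against 3595 and 3577 in WT serum and 4901 and 5410 in WT starved arrays. Arrays had been scaled to a common trimmed mean of 2500.6 to 2500.8, their median signals were 765.6 to 924.4, and replicates correlated at r = 0.976 to 0.984 across probe sets. Fibroblast markers were present: 8 of 9 listed genes were tested, all but Thy1, and their summed signal was 284800 to 381300 on KO arrays and 159300 to 182900 on WT arrays. Within WT they were uneven, since Col1a2 read 742.9 on WT serum array 1 and 581.4 on WT starved array 1, against 9443 and 8871 on the second arrays, with 62380 to 91080 on KO arrays. Pdgfra read 6040 to 15780 on KO arrays and 13.25 to 129.2 on WT arrays. Summed epithelial markers (4 genes) were 378.5 to 992.7 in KO and 612.1 to 993.5 in WT, with Cdh1, Epcam and Krt18 below the 40th percentile on every array. Endothelial markers (4 genes) summed to 789.3 to 964.4 in KO and 779.9 to 998.4 in WT, with Pecam1, Cdh5 and Tek below that level, and haematopoietic ones (3 of 4 genes) to 678.6 to 804.7 in KO and 617.6 to 808.4 in WT, with Ptprc and Adgre1 below it. The part of these marker differences in the results on genotype was not tested. In bulk RNA such as this, fewer cells of a type and less RNA per cell cannot be told apart.

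Glycolysis splits glucose into pyruvate in the cytosol, and lactate dehydrogenase can turn the pyruvate into lactate. When oxygen falls, the prolyl hydroxylases that mark HIF alpha subunits for destruction slow down, the subunits accumulate, and the HIF dimer binds short elements with the core ACGTG or GCGTG near genes for glucose uptake, glycolysis and blood vessel growth. Growth factors in serum are known to raise several of the same genes in cells with ample oxygen.

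The proximal promoters of some members that hold this core are printed here, and members without a match are named after them. The 250 bases before the transcription start are given for Adm and Egln3, higher in KO cells, for Ddit4 and Slc2a1, lower in KO cells, for Hk2, which serum raised in both genotypes, and for Pgk1, whose main probe set passed no test. They come from the RefSeq promoter table on build GRCm38.p6, are written along the gene's own strand, and have every ACGTG or GCGTG of either strand in capitals (CACGT and CACGC are the same letters read from the other strand).
Adm (chr7:110627407-110627656, plus strand): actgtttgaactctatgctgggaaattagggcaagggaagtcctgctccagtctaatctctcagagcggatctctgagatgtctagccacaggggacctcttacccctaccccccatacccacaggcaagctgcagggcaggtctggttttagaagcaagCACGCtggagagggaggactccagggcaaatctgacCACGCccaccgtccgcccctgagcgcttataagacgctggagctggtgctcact
Egln3 (chr12:54203875-54204124, minus strand): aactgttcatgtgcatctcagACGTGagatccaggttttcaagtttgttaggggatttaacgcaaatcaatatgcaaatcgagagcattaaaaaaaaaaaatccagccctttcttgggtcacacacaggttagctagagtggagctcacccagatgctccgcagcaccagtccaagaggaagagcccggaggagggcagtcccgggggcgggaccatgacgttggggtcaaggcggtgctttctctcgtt
Ddit4 (chr10:59951771-59952020, minus strand): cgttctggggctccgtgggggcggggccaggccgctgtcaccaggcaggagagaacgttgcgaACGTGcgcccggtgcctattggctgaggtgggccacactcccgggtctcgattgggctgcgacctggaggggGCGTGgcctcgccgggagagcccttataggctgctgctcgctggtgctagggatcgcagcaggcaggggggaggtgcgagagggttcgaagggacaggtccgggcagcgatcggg
Slc2a1 (chr4:119108495-119108744, plus strand): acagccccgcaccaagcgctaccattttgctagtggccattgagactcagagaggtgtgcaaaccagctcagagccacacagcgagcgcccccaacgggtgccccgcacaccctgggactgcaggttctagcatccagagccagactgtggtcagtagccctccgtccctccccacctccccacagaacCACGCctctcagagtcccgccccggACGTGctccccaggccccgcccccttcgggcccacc
Hk2 (chr6:82774455-82774704, minus strand): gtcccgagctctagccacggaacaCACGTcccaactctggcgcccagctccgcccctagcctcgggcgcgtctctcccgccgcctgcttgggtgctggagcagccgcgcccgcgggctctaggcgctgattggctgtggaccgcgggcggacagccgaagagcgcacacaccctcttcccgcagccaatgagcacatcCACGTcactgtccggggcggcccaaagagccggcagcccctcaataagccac
Pgk1 (chrX:106186850-106187099, plus strand): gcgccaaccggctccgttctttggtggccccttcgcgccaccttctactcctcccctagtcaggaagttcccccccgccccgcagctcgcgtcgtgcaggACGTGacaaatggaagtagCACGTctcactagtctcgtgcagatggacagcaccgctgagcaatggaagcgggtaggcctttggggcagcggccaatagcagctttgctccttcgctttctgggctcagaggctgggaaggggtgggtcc
Adm has its 2 matches starting 90 and 54 bases before the start, Slc2a1 at 61 and 36 bases, and Pgk1 has a pair at 150 and 131 bases. The table had no entry for Epas1, Ndrg1 and Bnip3l but held Gpi1 and Eno1, so its members are not the same genes as those measured. Among the 31 members with an entry in the table, 27 (87.1%) had a match in at least 1 such window, against 11226 of all 27025 genes (41.5%). Counted by window it was 35 of 45 (77.8%) for members and 12679 of 32851 (38.6%) overall. The E-box CACGTG, which contains the first core on both strands and is also bound by other factors, was in 5 of the 45 member windows (11.1%) and in 6.02% of all windows. Members with an entry but no match to either core were Gpi1, Tpi1, Eno2 and Car12, and Tpi1 was called lower in KO cells. Several members were chosen as known HIF targets, so the share of members with a match is not independent of their choice. The base composition of member windows and all windows was not compared. A match is only a run of letters, and of the genes printed above Adm and Egln3 were higher and Ddit4 and Slc2a1 lower in KO cells.

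The question of the first comparisons was how KO cells differed from WT cells within each serum state. A probe set was called when the Benjamini-Hochberg adjusted p of limma, fitted over all 14947 tested probe sets, was under 0.05, and differences are of log2(signal + 16), KO minus WT, ± SE. In starved cells 16 of the 53 member probe sets were higher in KO (30.2%, with 22.8% of all tested probe sets) and 20 lower (37.7%, with 24.8% of all). After serum 14 were higher (26.4%, with 22.7% of all) and 22 lower (41.5%, with 27.5% of all). By gene, taking each gene's brightest probe set as its main one, 8 were higher, 9 lower and 9 not called in starved cells, and 7, 11 and 8 after serum. The median difference over member probe sets was -0.06 in starved cells and -0.24 after serum, against -0.01 and -0.07 over all tested ones. Without KO serum array 2, the count of 14 was 8. The probe sets of Adm, Epas1 and Egln3 and the second of Pfkp reached the brightness filter on KO arrays only, so they entered these counts through the group in which they were high.

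The study's labels name a change of over 2-fold as of interest. With that size and no overlap between the arrays of both groups, 7 member probe sets were higher (8.8% of all tested ones passed) and 4 lower (10.5% of all) in starved KO cells, and 7 higher (8.55% of all) and 14 lower (12% of all) in KO cells after serum. By main probe set the higher genes were Adm, Epas1, Egln3 and Pfkp in both states. The probe sets of Adm, Epas1 and Egln3 and the second of Pfkp reached the brightness filter on KO arrays only. They entered these counts too through the group in which they were high, so the counts of higher probe sets are given as a description. The lower ones were Ddit4, Slc2a1 and Pfkfb3 in starved cells and Ddit4, Ndrg1, Slc2a1, Hk1 and Pkm after serum. Of these, Pfkfb3 was under the filter level on the KO starved arrays and Ddit4 on the KO serum arrays.

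**Figure D1:**
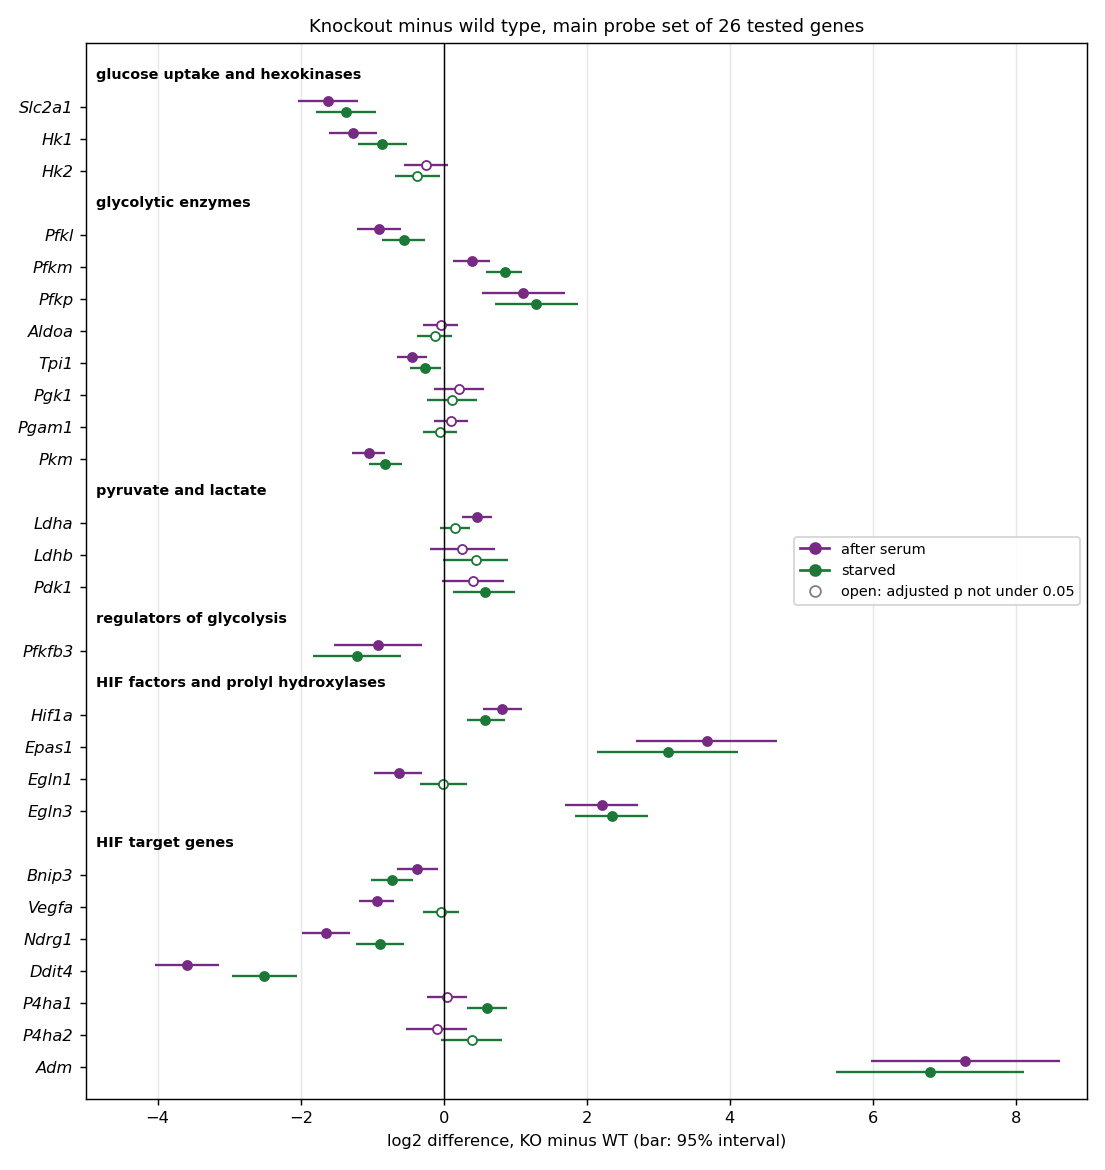
Log2 difference between KO and WT (horizontal axis, points with 95% intervals) for the main probe set of the 26 tested genes, grouped by role, after serum (purple) and starved (green); filled points passed the test. Adm stands farthest to the right at 7.29 after serum and 6.80 starved and Ddit4 farthest to the left at -3.59 and -2.51, while Aldoa, Pgk1 and Pgam1 lie near 0.

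Glucose enters fibroblasts mainly through GLUT1, encoded by Slc2a1, and is trapped by hexokinases. Slc2a1 read 3484 and 3824 in KO serum and 1099 and 1711 in KO starved arrays, against 11460 and 11090 in WT serum and 3867 and 3286 in WT starved arrays. KO arrays were below WT arrays of the same state without overlap, and serum-fed KO cells held about the signal of starved WT cells. Slc2a1 was lower in KO, at -1.37 ± 0.19 in starved cells (limma adjusted p = 0.000242) and -1.62 ± 0.19 after serum (adjusted p = 8.01e-05), and its other 2 probe sets were called lower in both states, by 2-fold to 3.63-fold. Hk1, the housekeeping hexokinase, read 3489 and 4506 in KO serum and 4885 and 6132 in KO starved arrays, against 9848 and 9279 in WT serum and 10320 and 9606 in WT starved arrays. Its differences were -1.27 ± 0.152 after serum (adjusted p = 9.5e-05) and -0.86 ± 0.152 starved (adjusted p = 0.00109). Hk2, the inducible hexokinase, passed in neither state, with -0.25 after serum (adjusted p = 0.161) and -0.37 starved (adjusted p = 0.051).

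The 3 genes for phosphofructokinase, the committed step of glycolysis, went in different directions. Pfkl, the liver type, was lower in KO (4075 and 4464 in KO serum and 4969 and 4654 in KO starved, against 7282 and 8771 in WT serum and 7779 and 6504 in WT starved), at -0.90 after serum (adjusted p = 0.000417) and -0.56 starved (adjusted p = 0.00699). Without WT starved array 1 the starved value was -0.43 (adjusted p = 0.0642). Pfkm, the muscle type, was higher in starved KO cells, at 11240 and 11050 against 6509 and 5877 in WT starved cells (0.85 ± 0.115, adjusted p = 0.000215). After serum it read 6943 and 8006 in KO and 5797 and 5570 in WT, a difference of 0.39 (adjusted p = 0.0174) that lost its call without either WT serum array or KO serum array 2 (adjusted p = 0.0509 to 0.147). Pfkp, the platelet type, read 1057 and 1543 in KO serum and 1213 and 1971 in KO starved arrays, against 539.6 and 630.9 in WT serum and 635.9 and 611.2 in WT starved arrays. All KO arrays were above all WT arrays, by 1.29 ± 0.261 starved (adjusted p = 0.00249) and 1.11 ± 0.261 after serum (adjusted p = 0.00555, and 0.84 with adjusted p = 0.0575 without KO serum array 2).

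Of the steps further down, Pkm, which encodes the pyruvate kinase of most tissues, had the largest difference. It read 11460 and 13470 in KO serum and 14440 and 14380 in KO starved arrays, against 24940 and 26560 in WT serum and 25020 and 25900 in WT starved arrays. The differences were -1.05 ± 0.105 after serum (adjusted p = 2.72e-05) and -0.82 ± 0.105 starved (adjusted p = 0.000142), and no KO array overlapped a WT array. Tpi1, triosephosphate isomerase, was lower after serum, at -0.44 (adjusted p = 0.00377). Its starved difference of -0.26 was at the threshold (adjusted p = 0.0494) and lost its call without any array other than KO starved array 2 (adjusted p = 0.0706 to 0.167). A second Tpi1 probe set gave -0.32 after serum (adjusted p = 0.0253, lost without either WT serum array or KO serum array 1). Its starved value was -0.27 (adjusted p = 0.0482, lost whichever array was left out). Median centring ended the starved calls of both probe sets and the call of the second after serum. The remaining Tpi1 probe set passed in neither state (-0.24 after serum, adjusted p = 0.158, and -0.29 starved, adjusted p = 0.0953). Aldoa (aldolase), Pgk1 (phosphoglycerate kinase) and Pgam1 (phosphoglycerate mutase) had main probe sets within 0.21 of 0 in both states, with intervals that for Aldoa after serum ran from -0.29 to 0.20. Among 4 Aldoa probe sets, 1 was lower in starved KO cells (-0.39, adjusted p = 0.00998), and 1 of 3 Pgk1 probe sets was higher after serum (0.68, adjusted p = 0.04), a call lost without any of 5 arrays (both WT starved, both WT serum and KO serum array 2, adjusted p = 0.0532 to 0.237). Aldoc, the brain aldolase, and Eno2, the neuronal enolase, were below the filter.

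Among Ldha, Ldhb and Pdk1, the tested members that set the fate of pyruvate, every called difference between the genotypes was higher in KO cells. Ldha, the lactate dehydrogenase subunit of glycolytic tissues, read 22140 and 21510 in KO serum and 17060 and 17170 in KO starved arrays, against 16140 and 15400 in WT serum and 14710 and 16180 in WT starved arrays. It was higher in KO after serum by 0.47 ± 0.0955 (adjusted p = 0.00245) and not called in starved cells (0.15, adjusted p = 0.225). Ldhb, the heart-type subunit, gave 4 probe sets that disagreed, with 2 called higher in starved KO cells (0.71 and 0.64), 1 after serum (0.85), and the brightest called in neither (0.45, adjusted p = 0.097, and 0.26, adjusted p = 0.307). The Ldhb value of 0.64 (adjusted p = 0.0476) lost its call without WT starved array 2, either KO starved array or either KO serum array (adjusted p = 0.0675 to 0.379). That of 0.85 lost it without WT serum array 2 or either KO serum array (adjusted p = 0.0508 to 0.109). Pdk1, a kinase that shuts pyruvate dehydrogenase, was higher in starved KO cells by 0.57 (adjusted p = 0.035, lost without any of 6 arrays, all but the WT serum ones, adjusted p = 0.0514 to 0.118). After serum its main probe set did not pass (0.41, adjusted p = 0.107) while the second did (0.79, adjusted p = 0.009, and 0.065 without KO serum array 1). Slc16a3, the lactate exporter MCT4, was below the filter on every array. Pfkfb3, which makes the sugar phosphate that activates phosphofructokinase, read 419.1 and 468.2 in KO serum and 197.8 and 280.1 in KO starved arrays, against 796.8 and 918.2 in WT serum and 669.3 and 481.6 in WT starved arrays. It was lower, at -1.21 starved (adjusted p = 0.00477) and -0.92 after serum (adjusted p = 0.0183, lost without either KO serum array or WT serum array 2, up to adjusted p = 0.101), while its dimmer second probe set passed in neither state (-0.06 and -0.61).

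**Figure D2:**
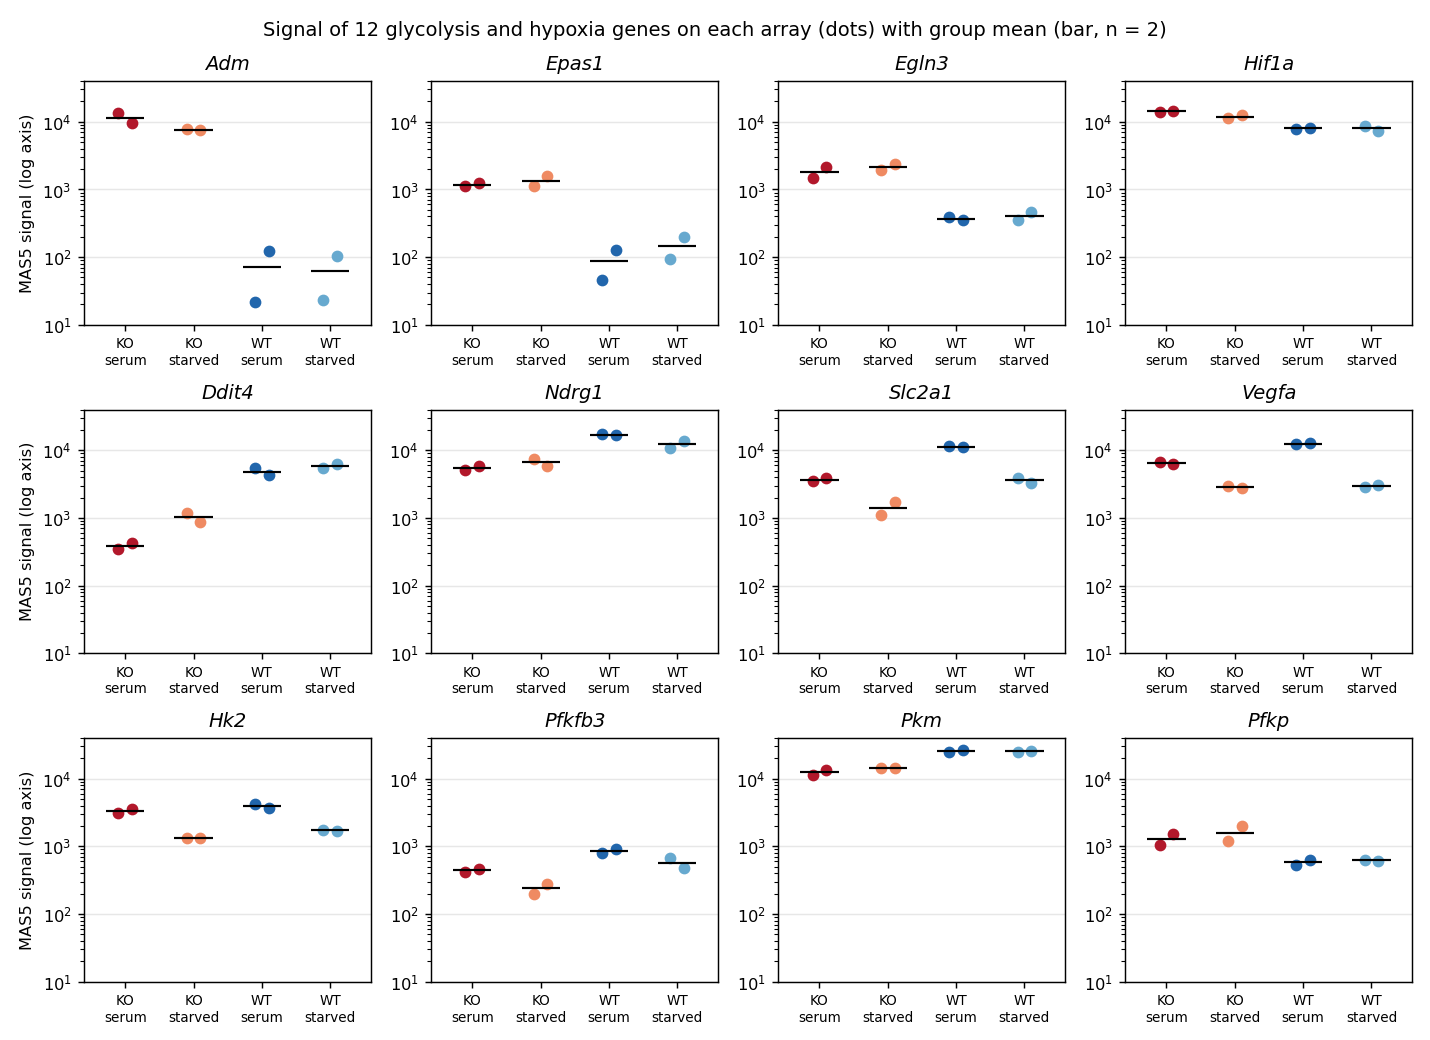
Deposited MAS5 signal (vertical axis, log scale) of 12 of the 26 genes on each of the 8 arrays (dots, n = 2 a group) with the group mean (bar), in KO serum, KO starved, WT serum and WT starved cells. Adm lies between 7478 and 13360 on KO arrays and between 21.52 and 123.1 on WT arrays, Ddit4 between 343.2 and 1183 on KO arrays and between 4249 and 6215 on WT arrays.

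Of the 4 oxygen-sensing genes, Epas1, Hif1a and Egln3 were higher in KO cells in both states, and Egln1 was lower in KO cells after serum. Of all tested probe sets, 22.8% were higher in starved KO cells, and 22.7% higher and 27.5% lower after serum. Epas1 and Egln3 reached the brightness filter on KO arrays only, so the count of higher genes and the p-values of Epas1 and Egln3 are given as a description. Epas1, which encodes HIF-2 alpha, read 1139 and 1227 in KO serum and 1127 and 1570 in KO starved arrays, against 45.36 and 127 in WT serum and 94.92 and 197.3 in WT starved arrays. All KO arrays were above all WT arrays, and within WT the second array was the higher in both states. Epas1 was higher by 3.13 ± 0.443 starved (adjusted p = 0.000278) and 3.68 ± 0.443 after serum (adjusted p = 9.68e-05). Because WT signals were low these sizes depend on the constant added before the logarithm, and with the largest constant tried they were 1.99 and 2.08. Leaving out WT serum array 1 or 2 gave 3.07 or 4.29 after serum.

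Hif1a, which encodes HIF-1 alpha, read 13890 and 14520 in KO serum and 11410 and 12480 in KO starved arrays, against 7883 and 8174 in WT serum and 8797 and 7192 in WT starved arrays. Its KO and WT arrays of the same state did not overlap, and it was higher in KO by 0.82 ± 0.12 after serum (adjusted p = 0.000324) and 0.58 ± 0.12 starved (adjusted p = 0.0027). Its other 2 tested probe sets were called higher in both states as well, at 1.03 and 0.58 after serum and 0.75 and 1.00 starved; the value of 0.58 lost its call without WT serum array 1 or either KO serum array (adjusted p = 0.0576 to 0.0779). Egln3, the hydroxylase PHD3 and itself a HIF target, read 1472 and 2127 in KO serum and 1956 and 2342 in KO starved arrays, against 389.9 and 349.6 in WT serum and 359.4 and 458.2 in WT starved arrays. The difference was 2.21 ± 0.229 after serum (adjusted p = 3.52e-05) and 2.35 ± 0.229 starved (adjusted p = 2.31e-05), and a second probe set gave 1.71 and 2.48 (the starved value was 1.70 with the largest constant). Egln1, the hydroxylase PHD2 that does most of this work in cells with oxygen, read 3857 and 3395 in KO serum and 4865 and 6504 in WT serum arrays. It was lower after serum, at -0.63 (adjusted p = 0.00593; adjusted p = 0.053 to 0.0553 without KO serum array 2 or WT serum array 2) and gave -0.01 in starved cells (adjusted p = 0.976).

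Among the 26 tested members, HIF target genes outside glycolysis held the largest differences in both directions. Adm, the vessel-dilating peptide adrenomedullin, read 13360 and 9581 in KO serum and 7706 and 7478 in KO starved arrays, against 21.52 and 123.1 in WT serum and 23.17 and 102.9 in WT starved arrays. Every WT value was under its array's 40th percentile, so Adm passed the filter through KO arrays only and its p-values are given as a description. In WT the second array read higher than the first in both states, as it did for Epas1 and Col1a2. Adm was higher in KO by 6.80 ± 0.59 starved (adjusted p = 1.04e-05) and 7.29 ± 0.59 after serum (adjusted p = 6.88e-06). With 64 added the sizes were 5.99 and 6.49, and with the largest constant 4.63 and 5.16. Without WT starved array 1 or 2 the starved value was 6.0 or 7.6, and without WT serum array 1 or 2 the other was 6.35 or 8.24.

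Ddit4, the stress-induced inhibitor of mTORC1 also called REDD1, was low in KO cells. It read 343.2 and 431.8 in KO serum and 1183 and 859.3 in KO starved arrays, against 5453 and 4249 in WT serum and 5423 and 6215 in WT starved arrays. The differences were -3.59 ± 0.202 after serum (adjusted p = 6.15e-07, and -2.98 with the largest constant) and -2.51 ± 0.202 starved (adjusted p = 6.33e-06). Ndrg1, a growth-arrest and stress gene, read 5095 and 5812 in KO serum and 7430 and 5841 in KO starved arrays, against 17580 and 16580 in WT serum and 10920 and 13730 in WT starved arrays. All 5 of its probe sets were called lower in both states, between -1.38 and -1.70 after serum and between -0.55 and -0.93 starved. The value of -0.55 lost its call without WT starved array 2 or either KO starved array (adjusted p = 0.0659 to 0.29). That call was also lost under quantile normalization, under median centring, without the filter and without the mean-variance trend.

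Bnip3 and the collagen hydroxylases differed less. Bnip3, a mitophagy receptor, read 4375 and 4450 in KO starved and 6901 and 7713 in WT starved arrays, a difference of -0.72 ± 0.132 (adjusted p = 0.00134). After serum it was -0.37 (adjusted p = 0.0395), a call lost without WT serum array 2 or either KO serum array (adjusted p = 0.0984 to 0.274) and under both other scalings. P4ha1, a subunit of the collagen prolyl 4-hydroxylase, was higher in starved KO cells (7302 and 7104, against 5251 and 4262 in WT starved arrays, 0.60, adjusted p = 0.00288) and not called after serum (0.05, adjusted p = 0.753). Its relative P4ha2 passed in neither state, and the carbonic anhydrases Car9 and Car12 were below the filter.

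**Figure D3:**
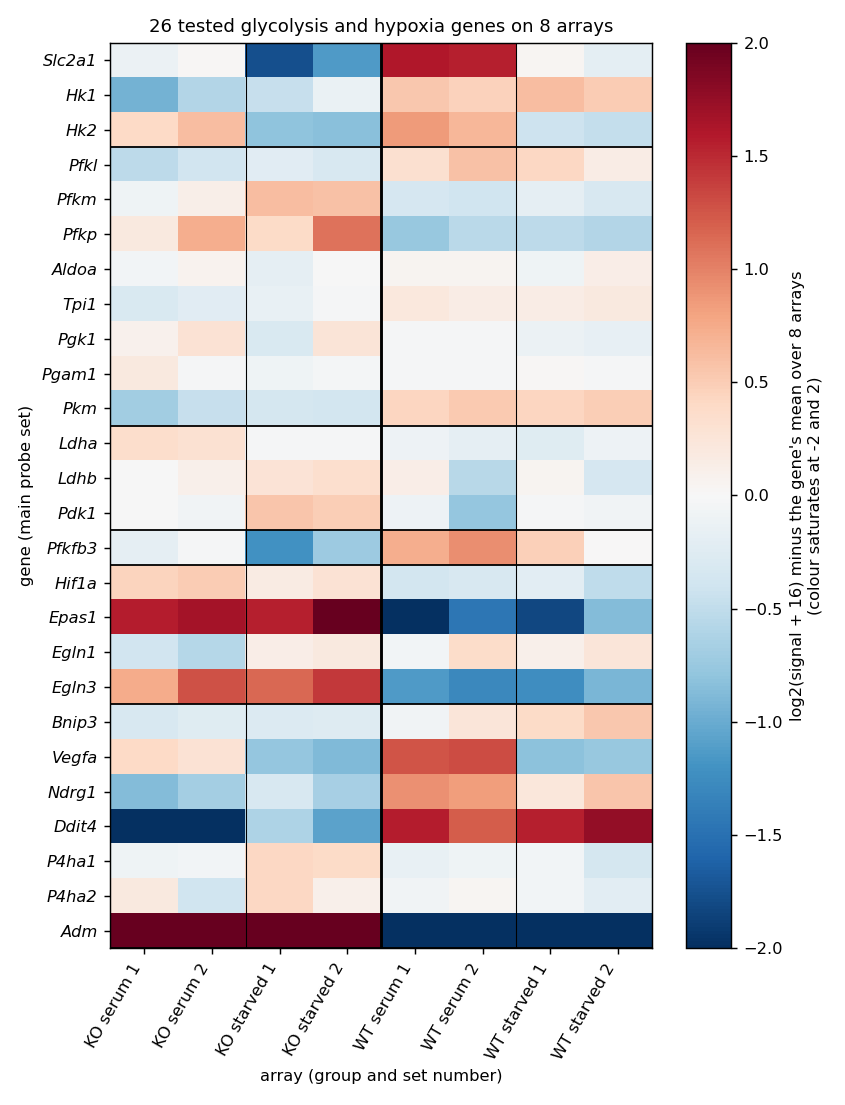
Each cell is log2(signal + 16) minus that gene's mean over the 8 arrays (colour, cut at -2 and 2) for the main probe sets of the 26 tested genes (rows, by role) on the KO serum, KO starved, WT serum and WT starved arrays (columns). Adm, Epas1 and Egln3 are red on the 4 KO arrays and blue on the 4 WT arrays, Ddit4 and Pkm the other way round, and Slc2a1, Hk2 and Vegfa are redder after serum than in starved cells of the same genotype.

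The next question was which members answered to 30 min of serum. By main probe set, Slc2a1, Hk2 and Vegfa, the vascular endothelial growth factor, rose over 2-fold in both genotypes, while 1 other Slc2a1 probe set and the second Vegfa probe set rose by less in KO cells (0.83 and 0.84 on the log2 scale). In KO cells 8 member probe sets rose (15.1%, with 9.33% of all tested ones) and 7 fell (13.2%, with 13.8% of all). In WT cells 6 rose (11.3%, with 2.44% of all) and limma called none lower (1.7% of all). A further 2 were lower at an unadjusted p under 0.05, a level at which the share of all was not taken. By gene, 5 rose and 4 fell in KO cells, and 3 rose in WT cells. With over 2-fold and no overlap, 4 rose and 1 fell in KO cells (3.75% and 3.21% of all), and 6 rose and 0 fell in WT cells (1.77% and 1.26% of all). Across all tested probe sets the median response was -0.13 in KO and -0.05 in WT cells, and over members it was -0.17 and 0.03. Centring each array on its median took the KO median of all probe sets to -0.02 and the share of rises among all KO calls to 58.4%, from 40.4% in the values as deposited, so small KO falls are to be read against that shift. The 7 falls in KO cells were 4 without KO starved array 2 and 3 without KO serum array 1.

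Slc2a1 rose by 1.40 ± 0.19 in KO cells (adjusted p = 0.000774) and by 1.66 ± 0.19 in WT cells (adjusted p = 0.00069). Its other probe sets rose too, by 1.65 and 0.83 in KO and by 1.25 and 1.38 in WT cells. Hk2 read 3115 and 3604 in KO serum and 1341 and 1316 in KO starved arrays, and 4250 and 3737 in WT serum and 1752 and 1686 in WT starved arrays. Serum and starved arrays did not overlap, and Hk2 rose by 1.32 ± 0.139 in KO cells (adjusted p = 0.000151) and by 1.21 ± 0.139 in WT cells (adjusted p = 0.000707). Vegfa read 6759 and 6259 in KO serum and 2999 and 2787 in KO starved arrays, and 12270 and 12790 in WT serum and 2911 and 3025 in WT starved arrays. Starved cells of both genotypes held nearly the same signal, and the serum-fed arrays stood apart. The Vegfa rise was 1.17 ± 0.113 in KO cells (adjusted p = 8.77e-05) and 2.07 ± 0.113 in WT cells (adjusted p = 2.98e-06). Its second probe set, at 2688 and 2636 in KO serum and 1684 and 1307 in KO starved, and 10000 and 9426 in WT serum and 1992 and 2142 in WT starved arrays, rose by 0.84 in KO and 2.22 in WT cells. KO minus WT, the main Vegfa probe set stood at -0.94 ± 0.113 after serum (adjusted p = 9.11e-05) and -0.04 starved (adjusted p = 0.809), and the second at -1.86 and -0.47, of which the starved call was lost without either WT starved array or KO starved array 2 (adjusted p = 0.0529 to 0.131).

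By main probe set the remaining calls were in KO cells, and the other 3 KO falls were of further probe sets of Ldhb, Ndrg1 and P4ha1. Ddit4 fell there by 1.35 on the log2 scale (adjusted p = 0.00138), with a WT value of -0.27 (adjusted p = 0.543). Its KO serum values were under the filter level, so the size of this fall is limited by background. Egln1 fell by 0.64 (adjusted p = 0.0137), Pfkm by 0.58 (adjusted p = 0.00625) and P4ha1 by 0.47 (adjusted p = 0.024). Ldha rose by 0.35 (adjusted p = 0.0257) and Pfkfb3 by 0.87 (adjusted p = 0.0466). Leaving out 1 array ended each of these calls but that of Ddit4: KO serum array 1 for Pfkm (adjusted p = 0.0695), KO starved array 2 or KO serum array 2 for Egln1 (0.0575 to 0.0963), any KO array for Ldha (0.057 to 0.153) and P4ha1 (0.0602 to 0.124), and any array but KO starved array 2 for Pfkfb3 (0.0531 to 0.175). The WT values of these 5 genes, between -0.12 and 0.58, passed no test. Adm, Epas1, Egln3, Hif1a and Pkm passed in neither genotype, with an interval for Hif1a in WT cells from -0.25 to 0.28.

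**Figure D4:**
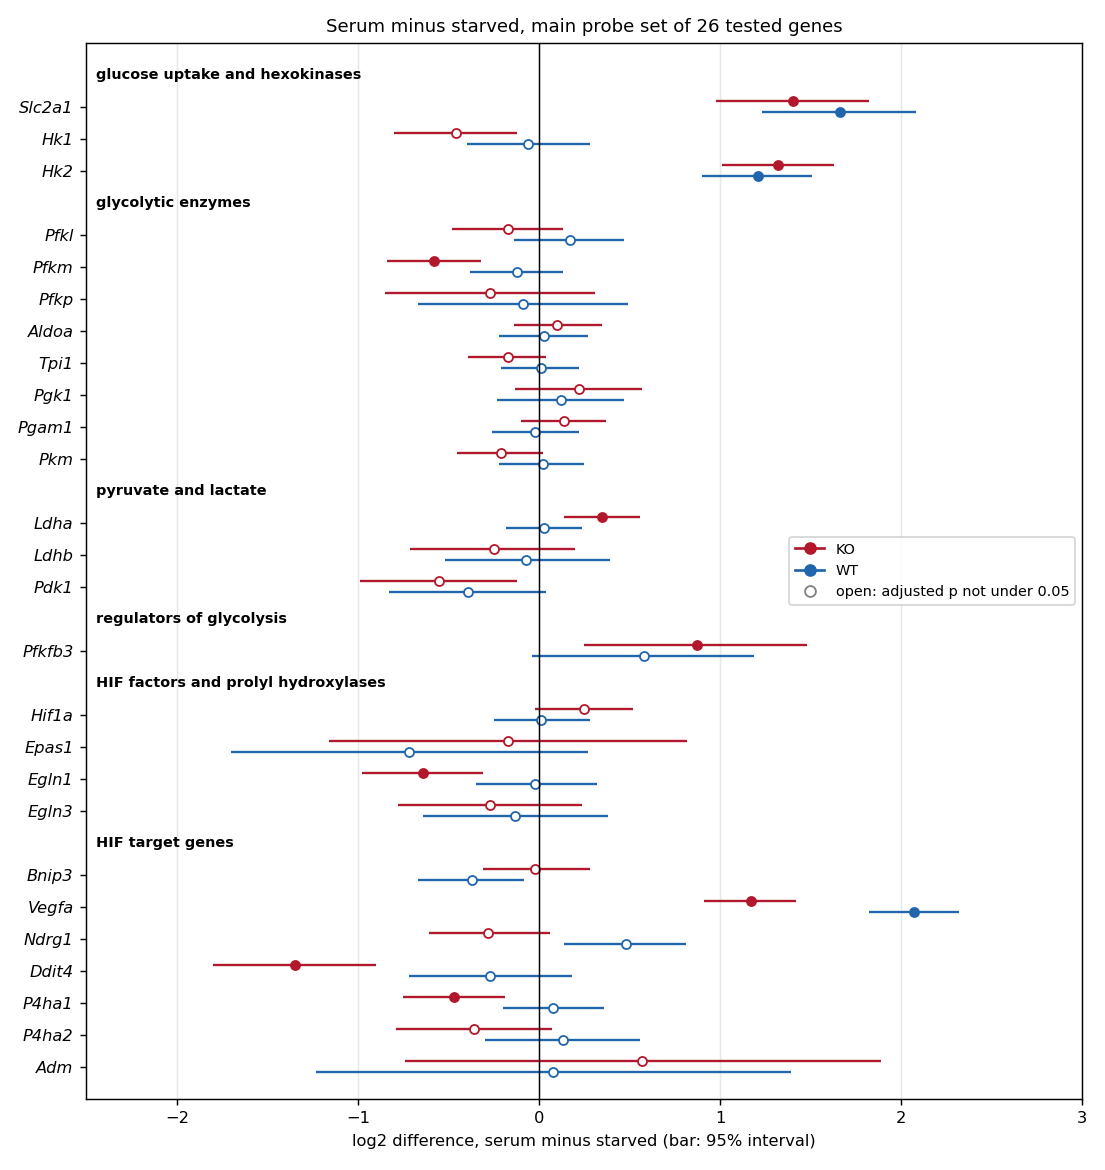
Log2 difference between serum and starved cells (horizontal axis, points with 95% intervals) for the main probe set of the 26 tested genes, in KO (red) and WT (blue) cells; filled points passed the test. Slc2a1, Hk2 and Vegfa lie right of 1 in both genotypes, and Ddit4 lies at -1.35 in KO and -0.27 in WT cells.

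Whether serum acted differently in the genotypes was tested directly, as the KO response minus the WT response. Limma called 3 of 53 member probe sets lower (5.66%, with 1.08% of all tested ones) and 0 higher (1.61% of all). At an unadjusted p under 0.05 there were 14 lower and 1 higher, several of them probe sets of the same gene. The share of all tested probe sets at that level was not taken, so this split is not read as a result on the members. The median was -0.18 over members and -0.06 over all tested probe sets. The calls were both Vegfa probe sets, at -0.91 ± 0.159 (adjusted p = 0.0184) and -1.39 ± 0.206 (adjusted p = 0.00745), and 1 of 5 Ndrg1 probe sets at -0.83 ± 0.188 (adjusted p = 0.0483). By gene, taking main probe sets, Vegfa alone was called, 1 of 26 (3.85%). The second Vegfa value kept its call under all 17 alternatives that include its probe set. The first lost it without any WT array or either KO serum array (adjusted p = 0.0509 to 0.0829), and without the mean-variance trend (adjusted p = 0.0558). The Ndrg1 call was lost without any array but WT starved array 2 (adjusted p = 0.0537 to 0.18). It was also lost under quantile normalization, under median centring, without the filter and without the mean-variance trend. The other 4 Ndrg1 probe sets gave -0.45 to -1.03 and were not called. Without either WT serum array, either KO serum array or WT starved array 1, the count of 3 was 1.

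With over 2-fold and no overlap, 3 member probe sets passed as lower (2.67% of all) and 0 as higher (2.26% of all), and the 1 main probe set among them was Ddit4. Its KO response minus its WT response was -1.08 ± 0.286 in the fit, which did not pass (adjusted p = 0.0777). The size rests on KO serum signals under the filter level. For Slc2a1 the responses differed by -0.25 (95% interval -0.85 to 0.34, adjusted p = 0.658) and for Hk2 by 0.12 (adjusted p = 0.79, interval -0.32 to 0.56), so a difference of either sign lies within both intervals.

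Other genes of the same pathways were counted from lists by main probe set. The alternative settings were tallied for the members only, so no call in these lists was checked that way. The shares of all tested probe sets to read them against were 22.8% higher and 24.8% lower in starved KO cells, and 22.7% higher and 27.5% lower in KO cells after serum. Of 11 further glycolysis genes tested, 5 were higher (45.5%) and 3 lower (27.3%) in starved KO cells, and 3 and 3 after serum (27.3% each). Txnip, which restrains glucose uptake, read 28920 and 24230 in KO starved and 7044 and 7733 in WT starved arrays, and the lactate transporter Slc16a1 was higher by 1.23 and the glycerol phosphate dehydrogenase Gpd2 by 0.54. The neuronal glucose transporter Slc2a3 was also called higher, but it reached the brightness filter on KO arrays only, through the group in which it was high. The size of its difference rests on dim WT signals. Bpgm, the bisphosphoglycerate mutase, was lower in starved KO cells (415.8 and 433.3, against 3755 and 4026 in WT starved arrays), but it reached the filter on WT arrays only. The others lower in starved KO cells were Eno3 at -0.71 and Adpgk at -0.51. Txnip fell with serum in both genotypes, by 1.91 in KO and by 3.19 in WT cells. Its KO response minus its WT response, 1.28, was not called by limma (adjusted p = 0.138). The other Txnip probe set also fell in both genotypes, and there the responses differed by 0.16 (adjusted p = 0.829). Of 7 pentose phosphate genes 3 were higher (42.9%) and 2 lower (28.6%) in starved KO cells, among them the isomerase Rpia (1.56), transketolase Tkt (0.68) and Pgls (0.57), and on the other side transaldolase Taldo1 (-1.35) and Pgd (-0.69). After serum the counts were 2 (28.6%) and 3 (42.9%). Serum lowered 4 of the 7 in KO cells (57.1%, with 13.8% of all) and limma called none in WT cells. These falls were small, from -0.43 for Rpe (adjusted p = 0.0463) to -0.62 for Rpia (adjusted p = 0.0146). They are to be read against the KO median of -0.13 over all tested probe sets. The Rpia response differed between the genotypes by -1.05 (adjusted p = 0.0304), with -0.62 in KO and 0.43 in WT cells.

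Of 9 genes that bring pyruvate into the mitochondrion or control that step, 5 were higher (55.6%) and 1 lower (11.1%) in starved KO cells, and 6 (66.7%) and 1 (11.1%) after serum. Pyruvate carboxylase Pcx was higher by 1.75, Pdhb, a subunit of pyruvate dehydrogenase, by 0.91, and the kinases Pdk2 by 0.80 and Pdk3 by 0.66 in starved cells. Pdk4, the kinase of this enzyme that fasting induces, went the other way, at 117.1 to 256.2 on KO arrays and 8114 to 12850 on WT arrays, a difference of -6.02 starved and -5.70 after serum, with every KO value under its array's 40th percentile, so Pdk4 too passed the filter on WT arrays only. Of 30 further HIF pathway and target genes, 7 were higher (23.3%) and 11 lower (36.7%) in starved KO cells, and 4 (13.3%) and 12 (40%) after serum. In starved cells the nuclear receptor Rora (2.10), the glycogen-targeting subunit Ppp1r3c (1.96), Angptl4, which reached the filter on KO starved arrays only, and Hif3a (1.00) were higher, and the transferrin receptor Tfrc (-1.78), Higd1a (-1.53), the collagen lysyl hydroxylase Plod2 (-1.31) and the cytokine Mif (-1.26) were lower. Serum raised 8 of the 30 (26.7%, with 9.33% of all) and lowered 7 (23.3%, with 13.8% of all) in KO cells. In WT cells it raised 3 (10%, with 2.44% of all) and lowered 1 (3.33%, with 1.7% of all). For 4 the KO response was below the WT one by the interaction test (13.3%, with 1.08% of all). These were Ppp1r3c, the clock-linked repressor Bhlhe40 (-1.77), endothelin Edn1 (-1.72) and the hydroxylase Egln2 (-0.92). None of these calls was checked under the alternatives or by leaving out an array. Ppp1r3c read 52.49 to 80.71 on all serum arrays, under their 40th percentiles, so the sizes of its falls, and of the difference between them, are limited by background. Bhlhe40 read 4278 and 4576 in KO serum and 1869 and 1999 in KO starved, and 17110 and 15860 in WT serum and 1926 and 2291 in WT starved arrays. As for Vegfa, its starved signals were close and its serum-fed ones were lower in KO cells.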

How the data were processed

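Total RNA of each sample was labelled with biotin and run on 1 array, per the labels' protocols. The values are intensity (signal) per probe set on a linear scale, made by the authors with MAS5 (version not given) per the submitters' processing notes; detection calls were not used here. MAS5 subtracts mismatch signal, so ratios to low values are uncertain. Of 22690 deposited probe sets, 64 controls were left out and 14947 at or above their array's 40th percentile on at least 2 of 8 arrays were tested. Log2(signal + 16) was fitted with limma 3.58.1 in R 4.3.3 as group means over all 8 arrays, with a mean-variance trend (4 residual and 6.07 prior degrees of freedom), two-sided tests and p-values adjusted by Benjamini-Hochberg over all tested probe sets; 5 contrasts were taken. An exact permutation test of 2 arrays against 2 cannot give a p under 0.333. A gene's main probe set is its brightest (highest mean log2 signal). The procedure was tested on simulated data. The members and lists were chosen with earlier results of these data known. All members could be named, and of each other list up to 4 called genes per direction and comparison with the largest differences. Promoters were read from the RefSeq table (GRCm38.p6). Alternatives were added constants of 1, 64 or 256, quantile normalization, median centring, no filter or a 60th percentile filter, no trend, the set number as a block, no letter-suffix probe sets, a 2-fold rule without overlap, and each array left out.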

Additional observations from a re-analysis of the deposited data

Results flagged for a closer look

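The difference in serum response between the genotypes, tested as KO response minus WT response with limma, passed for 3 member probe sets. The dimmer Vegfa probe set had a difference of -1.39 on the log2 scale (adjusted p = 0.00745): its rise was 0.84 in KO and 2.22 in WT cells. The brighter, main Vegfa probe set had -0.91 (adjusted p = 0.0184), with rises of 1.17 in KO and 2.07 in WT cells. Among 5 Ndrg1 probe sets, 1 had -0.83 (adjusted p = 0.0483), with -0.56 in KO and 0.27 in WT cells.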

How the results depend on the processing

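No called difference of a member changed sign under any alternative. Calls kept in every alternative fitted were 27 of 36 (KO against WT, starved), 24 of 36 (KO against WT, serum), 7 of 15 (serum in KO), 6 of 6 (serum in WT) and 1 of 3 (interaction). Of 2923 alternative values of differences that were not called, 136 had the other sign. In the same order of comparisons, calls higher and lower were 16 and 20, 14 and 22, 8 and 7, 6 and 0, and 0 and 3. Without letter-suffix probe sets, which leaves fewer probe sets to call, they moved to 10 and 8, 7 and 10 in the first pair of comparisons and to 4 rises for serum in KO cells. The rule of over 2-fold without overlap gave 7 and 4, 7 and 14, and 4 and 1 for the first 3 comparisons. Without the mean-variance trend 1 interaction was called; the cause was not tested. Leaving out each array gave ranges of 12 to 17 and 16 to 18, 8 to 14 and 17 to 22, 6 to 8 and 3 to 8, 6 to 7, and 1 to 3 lower interactions, with fewer samples in each fit. With set number as a block, counts were 16 and 19, 14 and 22, 7 and 8, 7 and 0, and 0 and 3. The labels do not say that the numbers pair samples. Deviations of same-numbered arrays correlated at -0.03 to 0.21, with 0.21 between WT serum and WT starved arrays. Col1a2, Adm and Epas1 read higher on the second WT array in both states, and the main fit did not include the set number. The block ended the calls of Tpi1 (starved) and Pfkfb3 (serum in KO). Arrays limit precision by their number, 2 a group, and MAS5 signals near the floor (Adm and Epas1 in WT cells) give sizes that move with the added constant.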
